A study of Mus musculus with 10 samples.

Results

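The mRNAs of 10 genes that build, recycle and buffer actin filaments were described in the soma and neurites of N2A cells, a mouse neuroblastoma line also called Neuro2a. They are 3 actins (Actb, Actg1 and Acta2), 2 cofilins (Cfl1 and Cfl2), the related severing protein destrin (Dstn), 2 profilins (Pfn1 and Pfn2) and 2 β-thymosins (Tmsb4x and Tmsb10). They were picked out of the table by gene symbol and make up 10 of the 13698 genes and 12 of the 17292 transcripts with a gene name in the table. All 10 reached a mean of 5 TPM, an abundance that is corrected for transcript length, and were therefore tested.

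Actin monomers add to the fast-growing end of a filament, and growth cones and protrusions depend on this turnover. Profilin binds actin monomers and hands them to formins and Ena/VASP proteins at the growing end, whereas β-thymosins hold monomers back from polymerization. Cofilin and destrin sever and depolymerize aged filaments. In neurons, Actb mRNA is the textbook example of a transported mRNA: the RNA-binding protein Igf2bp1 (ZBP1) recognizes a zipcode in its 3′ UTR and carries it toward protrusions.

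N2A cells were plated on porous membranes meant to separate neurites from cell bodies, and were transiently transfected with 1 of 5 plasmids. These expressed a fragment of DMPK that lacks CTG repeats (CTG0), its repeat-expanded form (CTG480, used to deplete MBNL activity), or a kinesin tail without its motor domain, from Kif1bβ, Kif1bα or Kif1c. CTG0 is the control of CTG480, and the Kif1bβ tail is the control of the other 2 tails. After 48 h of neurite growth without serum, RNA of each fraction was pooled over the wells of a plate and 300 ng was sequenced after depletion of ribosomal RNA.

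Each transfection gave 1 soma and 1 neurite library, 10 in all, and the experiment was done once. The 5 soma and the 5 neurite libraries were therefore set against each other across transfections, and p-values of that comparison rest on how far 5 unlike transfections spread, since no condition was repeated. Transfections were compared by their values, with no test. Sequencing depth is unknown, because the table gives no counts.

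The TPM had been normalized between libraries by cyclic loess, which evens out general differences, so a change shared by most mRNAs is hidden. Scaling each library to a common sum of all transcripts shifted the median localization ratio of all genes by 0.34, and a common sum of protein-coding transcripts by 0.14. On the scale of the deposited values 51.0% of the genes called were higher in neurites, against 97.2% and 82.9% under these scalings, so every direction below is relative to the other genes.

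Of 10 neuronal markers listed, 7 were measured and all of these reached 5 TPM. Their means ran from 10.3 TPM up to 405 TPM for Tubb3 and 523 TPM for Uchl1. At an adjusted p under 0.05 from limma, Tubb3 and Uchl1 were higher in neurites, and Stmn2 and Ncam1 were higher in soma. As a mean log2 of neurite over soma, the former were at 0.12 and 0.34 and the latter at −0.46 and −0.55. Few markers of other cells were measured. They were 2 of 6 fibroblast markers, at a summed 4.38 TPM or less in any library, the glial Mbp (1 of 5) at 4.07 TPM or less, and the endothelial Pecam1 (1 of 5) at 4.14 TPM or less. Malat1, a noncoding RNA known to stay in the nucleus, averaged 1653 TPM in the soma libraries and still 1225 TPM in the neurite libraries. RNA of cell bodies in the neurite libraries would make localization ratios smaller in size, and its share was not tested. The ratios below therefore compare the fractions as collected. In pooled fractions, fewer cell bodies and less RNA per cell cannot be told apart.

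Actb and Actg1, the cytoplasmic β- and γ-actin, code for proteins that are 98.9% identical over 375 residues, while their coding sequences are 88.7% identical. Acta2, the α-actin of smooth muscle, is 93.6% identical to Actb at the protein level. A short read can be assigned to one of the 2 cytoplasmic actins only at bases where their mRNAs differ. The first 10 codons are shown as an example, and other differences lie elsewhere in the mRNAs. In the lines that follow, from GENCODE on GRCm38 and 5′ to 3′, capitals mark the 8 of 30 bases at which the partner differs.
Actb: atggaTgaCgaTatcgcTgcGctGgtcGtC
Actg1: atggaAgaAgaAatcgcCgcActCgtcAtT

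The mRNAs of the 2 β-thymosins, whose proteins are 75% identical over 44 residues, differ at 8 bases of the same stretch as well.
Tmsb4x: atgTcTgacaaAccCgaTatggCTgaGatc
Tmsb10: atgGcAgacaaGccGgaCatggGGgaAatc

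Actb lies on the minus strand of chromosome 5 (chr5:142903115-142906754, GRCm38), and its zipcode was looked for at the start of the 3′ UTR. The search was for GGACT and ACA with 10 to 25 bases between them, the pair of short elements known from the zipcode, on the mRNA strand within the first 100 bases after the stop codon. Actb held it at bases 3 to 28, with 18 bases between both parts, which are in capitals below.
Actb 3′ UTR: GGACTgttactgagctgcgttttACA

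No other gene of the 10 had these letters in that window, and 2.83% of the genes did (336 of 11870 with 3′ UTRs of at least 100 bases). This is a match of letters and no measurement of binding.

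Actb and Actg1 ranked 19 and 23 of 9853 genes by mean TPM. Both cytoplasmic actins together took 0.842% to 0.896% of the protein-coding TPM in soma libraries and 0.979% to 1.04% in neurite libraries. The protein-coding TPM itself summed to 693223 to 710491 in soma and to 631715 to 642856 in neurites. These shares are thus on the scale of a common sum of protein-coding transcripts. Below them came Tmsb10 (mean of 718 TPM), Cfl1 (703 TPM), Pfn1 (527 TPM), Dstn (222 TPM), Acta2 (89.8 TPM), Tmsb4x (85.6 TPM), Pfn2 (34.4 TPM) and Cfl2 (24.2 TPM). The ranges over the 10 libraries of neighbours in this order overlapped for Actb and Actg1, Tmsb10 and Cfl1, and Acta2 and Tmsb4x. The other neighbouring pairs did not overlap.

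**Figure D1:**
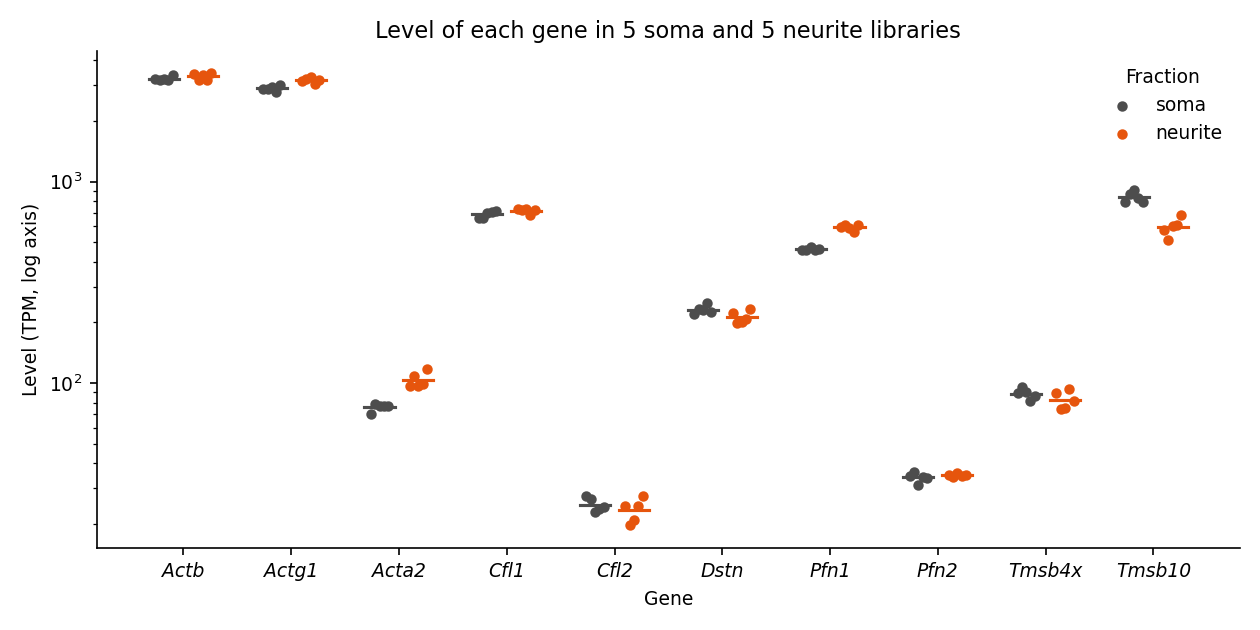
Level of the 10 genes in TPM (log axis) in the 5 soma libraries (grey) and the 5 neurite libraries (orange), with points for libraries and lines for means. Actb and Actg1 lie on top in all libraries, and in every neurite library Pfn1, Acta2 and Actg1 are higher and Tmsb10 is lower than in every soma library.

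Which of these mRNAs differed between soma and neurites was asked with the localization ratio, log2 of neurite over soma TPM with 0.1 TPM added to each. Pfn1, Acta2 and Actg1 were higher in neurites, Tmsb10 was higher in soma, and 6 genes did not pass the test (limma with transfection as a block, Benjamini-Hochberg adjusted p under 0.05 over 9853 genes). The background was similar, with 19.4% of all genes called toward neurites and 18.6% toward soma, so the counts of 3 and 1 are no result about the group as a whole. The median ratio of the 10 genes was 0.04, against 0.01 for all genes tested.

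Actb, the mRNA with the zipcode, was at 3219, 3200.4, 3246, 3182 and 3364 TPM in the soma libraries of CTG0, CTG480, Kif1bβ tail, Kif1bα tail and Kif1c tail cells. In the same order, its neurite libraries held 3412, 3207, 3395, 3178 and 3446 TPM. Both fractions overlapped, and the higher value of a pair was in neurites for 4 of 5 transfections. Its localization ratio of 0.04 (SE 0.041, n = 5) did not pass the test (adjusted p = 0.502 from limma), with a 95% interval of −0.06 to 0.13. Under the 2 common sums it was 0.38 and 0.18 and was called, as were most genes.

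Actg1 was at 2887, 2893, 2935, 2792 and 3004 TPM in soma, in the same order of transfections. Its neurite libraries held 3165, 3225, 3299, 3067 and 3198 TPM. Every neurite value was above every soma value. The ratio was 0.14 (SE 0.040, n = 5), positive in 5 of 5 transfections, at an adjusted p of 0.0304 from limma. The call was lost when any transfection but the Kif1c tail was left out (adjusted p up to 0.102) and without the filter on low values (0.0994), while the ratio stayed at 0.13 to 0.15.

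The 2 cytoplasmic actins shared a small spread. The SD of the ratio over transfections was 0.030 for Actg1 and 0.038 for Actb, against a median of 0.139 for all genes and 0.104 for the 206 most abundant genes. Within a library, where a factor common to all its genes plays no part, Actb exceeded Actg1 1.11-fold to 1.14-fold in soma, whereas the ratio was 0.994 to 1.08 in neurites. The log2 ratio of Actb to Actg1 was thus lower in neurites in 5 of 5 transfections, by a mean of −0.10 (SD 0.047). An exact sign-flip test over 5 transfections, 2-sided, gave p = 0.0625, the smallest it can give, and 0.104 adjusted over the 5 pairs of paralogs.

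Acta2 stood at 69.8, 79.1, 77.3, 76.7 and 76.9 TPM in soma. In neurites it stood at 96.3, 109, 97.1, 98.8 and 118 TPM. No value of one fraction reached the other, and the lowest was the CTG0 soma library. The ratio was 0.44 (SE 0.049, n = 5; 1.36-fold), positive in 5 of 5 transfections, with an adjusted p of 0.000856 from limma, and 97.1% of all genes had a lower one. It remained called under every alternative run, at 0.40 to 0.78.

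Because Acta2 marks smooth muscle cells and myofibroblasts, the other markers of that list were read beside it. Of the 11 listed, 7 were measured and 4 were tested: Acta2 and the myosin light chain Myl9 (0.41, adjusted p = 0.00790 from limma) rose in neurites. The muscle actins Actc1 (0.13, adjusted p = 0.413) and Actg2 (0.22, adjusted p = 0.152) did not pass. The list summed to 103 to 113 TPM in soma and 134 to 165 TPM in neurites, most of it Acta2, and Des stayed at a mean of 1.54 TPM. Tagln, Cnn1, Myh11 and Lmod1, the other listed markers, were not found among the gene symbols and so were not analysed here. The part of other cells in the Acta2 result was not tested.

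Pfn1, the ubiquitous profilin, was at 457, 458, 471, 457 and 463 TPM in soma. In neurites it was at 596, 609, 591, 561 and 606 TPM. The fractions were well apart, with the highest soma library at 471 TPM and the lowest neurite library at 561 TPM. The ratio was 0.36 (SE 0.036, n = 5; 1.28-fold), positive in 5 of 5 transfections, with an adjusted p of 0.000677 from limma, and stayed called under every alternative run, at 0.35 to 0.70. 

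Pfn2, the profilin enriched in brain, ranged from 31.05 to 36.3 TPM in soma and from 34.2 to 35.6 TPM in neurites. Its ratio was 0.04 (SE 0.050, adjusted p = 0.573 from limma), with a 95% interval of −0.08 to 0.15. It turned to −0.0023 without the Kif1bβ tail, and under the common sums it was 0.38 and 0.18 and was called. Pfn1 exceeded Pfn2 by 12.6-fold to 15.2-fold in soma and by 16.3-fold to 17.8-fold in neurites, a log2 difference of 0.32 (SD 0.13, higher in 5 of 5 transfections, p = 0.0625 by the exact sign-flip test, adjusted p = 0.104).

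Tmsb10 ran the other way. It was at 796, 865, 908, 829 and 795 TPM in soma and, in the same order of transfections, at 577, 515, 602, 611 and 685 TPM in neurites. All neurite values were below all soma values, the nearest being the Kif1c tail neurite library and the Kif1c tail soma library. The ratio was −0.49 (SE 0.072, n = 5; 1.41-fold higher in soma), negative in 5 of 5 transfections, with an adjusted p of 0.00225 from limma. With a common sum over protein-coding transcripts it was −0.35 and still called, but with a common sum over all transcripts it was −0.15 and no longer called (adjusted p = 0.167). 

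RNAs that stay in the nucleus lay on the same side: all 4 tested were higher in soma. The 5 listed, mostly Malat1, summed to 1563 to 1914 TPM in soma libraries against 1138 to 1439 TPM in neurite libraries. Their part in the Tmsb10 result was not tested.

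Tmsb4x, the other β-thymosin, was at 88.8, 95.4, 90.0, 81.6 and 86.6 TPM in soma and at 89.7, 74.3, 74.9, 93.2 and 81.4 TPM in neurites. The fractions overlapped, and soma was the higher in 3 of 5 transfections. Its ratio of −0.10 (SE 0.079, adjusted p = 0.336 from limma) turned to 0.24 and 0.04 under the common sums, and the former was called toward neurites (adjusted p = 0.0443 from limma). It lay between −0.17 and −0.04 when each transfection was left out. Tmsb10 was the more abundant in every library: Tmsb4x stood at 0.0984 to 0.111 of it in soma and at 0.119 to 0.156 in neurites. The log2 ratio of Tmsb4x to Tmsb10 was 0.39 higher in neurites (SD 0.19, 5 of 5 transfections, p = 0.0625 by the exact sign-flip test, adjusted p = 0.104).

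No cofilin passed the test. Cfl1, the non-muscle cofilin, ranged from 658 to 714 TPM in soma and from 683 to 734 TPM in neurites, with a ratio of 0.07 (SE 0.042, adjusted p = 0.246 from limma). Cfl2, the muscle form, ranged from 22.9 to 27.6 TPM in soma and from 19.7 to 27.5 TPM in neurites, with a ratio of −0.10 (SE 0.085, adjusted p = 0.388). For Dstn these ranges were 220 to 249 TPM and 199 to 233 TPM, with a ratio of −0.12 (SE 0.058, adjusted p = 0.134). The common sums raised Cfl1 to 0.40 and 0.20, where it was called, and turned Cfl2 to 0.24 and 0.04, where it was not. Dstn turned to 0.22 and 0.02, and the former was called toward neurites (adjusted p = 0.0212 from limma). The Cfl2 ratio was −0.02 without CTG480 and −0.17 without the Kif1c tail.

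The cofilin paralogs had values of both signs. The log2 ratio of Cfl1 to Dstn was higher in neurites by 0.19 in 4 of 5 transfections (SD 0.15, exact p = 0.125, adjusted p = 0.156). That of Cfl1 to Cfl2 was higher by 0.16 in 3 of 5 (SD 0.30, exact p = 0.3125, adjusted p = 0.3125).

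**Figure D2:**
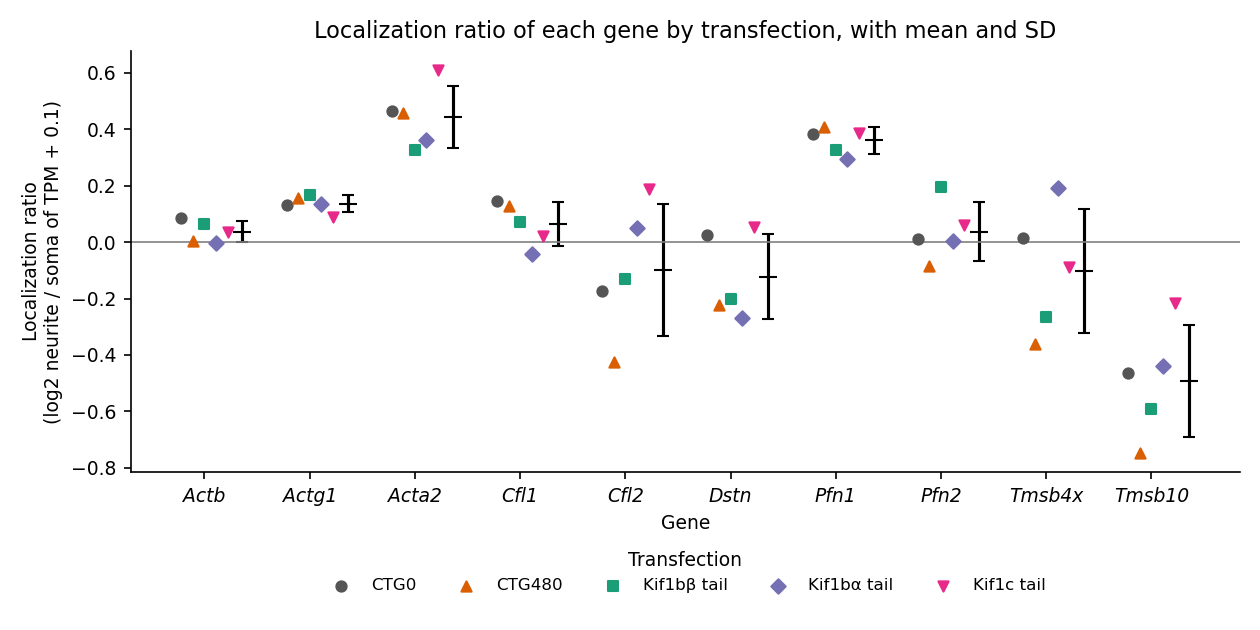
Localization ratio (log2 neurite over soma of TPM plus 0.1) of each gene, with 1 symbol per transfection and, at the right of each group, the mean with its SD over 5 transfections. Acta2, Pfn1 and Actg1 lie above 0 and Tmsb10 lies below 0 in all 5 transfections, whereas Actb, Cfl1, Cfl2, Dstn, Pfn2 and Tmsb4x have values on both sides of 0.

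Counting only genes whose fractions do not overlap at all gave the same 4: 3 with all neurite values above all soma values and 1 with all below. Of the genes tested, 13.7% and 14.3% did so.

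Summed by family, actin mRNA was set against the mRNA of its partners. The 3 actins together reached 6221 ± 146 TPM in soma against 6622 ± 183 TPM in neurites (SD, n = 5), and the profilins 495 ± 4.33 against 627 ± 19.3 TPM. The β-thymosins reached 927 against 681 TPM. Actin mRNA was 12.3 to 13.0 times as abundant as profilin mRNA in soma and 10.2 to 10.8 times in neurites, and no value overlapped.

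Against the β-thymosins, actin mRNA was 6.27 to 7.31 times as abundant in soma and 8.82 to 11.1 times in neurites, again without overlap. For the cofilins and destrin the ranges were 6.20 to 6.80 and 6.81 to 7.11. These ratios are set within each library and so do not move with a factor common to all its genes. What cyclic loess, whose correction can vary with level, did to them was not tested. They follow the members already tested and were given no test of their own.

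**Figure D3:**
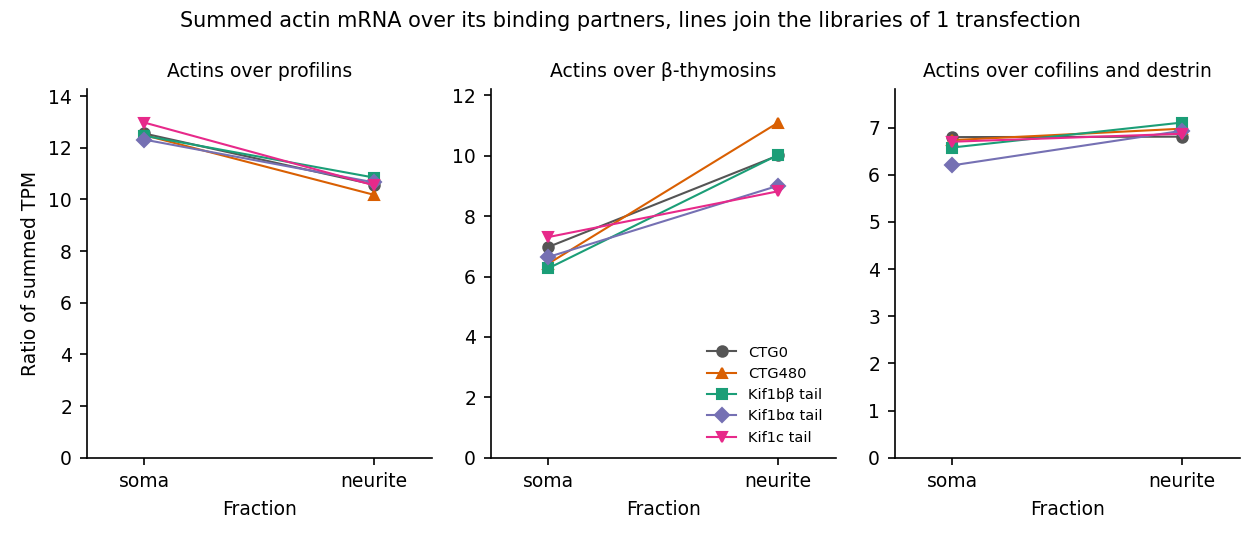
Summed TPM of Actb, Actg1 and Acta2 over that of the profilins, the β-thymosins, and the cofilins with destrin, in the soma and neurite library of each transfection (axes from 0). The ratio to profilins lies at 12.3 to 13.0 in soma and 10.2 to 10.8 in neurites, and the ratio to β-thymosins at 6.27 to 7.31 in soma and 8.82 to 11.1 in neurites.

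Only Actg1 and Tmsb10 had more than 1 transcript in the table. Actg1 NM_009609 held 98.3% to 98.9% of the gene's TPM and had a ratio of 0.14 (adjusted p = 0.0328 from limma over 11515 transcripts), which fell short of the call without the trend (0.0622), with lower filters (0.0689 and 0.123) and without any transfection but the Kif1c tail. The other transcript, NM_001313923, whose GENCODE model is incomplete, lay at 32.6 to 51.3 TPM and had a ratio of 0.19 (SE 0.0997, adjusted p = 0.195). Tmsb10 NM_025284 held 96.9% to 98.5% and was lower in neurites, at −0.50 (adjusted p = 0.00656).

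The second Tmsb10 transcript, NM_001039392, which has another 5′ UTR, lay at 11.8 to 22.1 TPM with a ratio of −0.08 (SE 0.14, adjusted p = 0.726). Its ratio was positive only with CTG0. It was −0.24 without that transfection (adjusted p = 0.0717 from limma) and −0.0087 without the Kif1c tail, and it turned to 0.26 and 0.06 under the common sums. At the transcript level, 3 of the 12 transcripts were higher in neurites and 1 in soma, where 13.8% of all transcripts were called in each direction.

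How reads were divided among near-identical copies bears on these levels. GENCODE models were cut into stretches of 31 bases, the default length by which kallisto matches reads. For Actb, 27.7% of the stretches also occurred in other genes of the table, 22.7% in Lrrc58 (mean of 62.5 TPM), and for Actg1 NM_009609 the share was 6.14%. For Cfl1 it was 2.71%, for Acta2 1.297%, and for Pfn1, Tmsb4x and both Tmsb10 transcripts 0%.

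Against all GENCODE genes, pseudogenes included, Actg1 NM_009609 shared 57.1% of its stretches, mostly with Gm12715, and Tmsb10 NM_025284 shared 73.7%, mostly with Gm9844. Cfl1 shared 27.9%, mainly with Snx32. Pfn1 shared 0.963%, Acta2 1.496% and Tmsb4x 0%. If such copies drew reads, levels of Actb, Actg1, Cfl1 and Tmsb10 would be less certain than those of Pfn1, Acta2 and Tmsb4x. Among genes of the table alone, Tmsb10 shared 0%, as Pfn1 and Tmsb4x did. Whether the sequences used for quantification held these copies is not given in the sources used here.

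Whether the plasmids moved these mRNAs was asked with the difference of localization ratios between a treated and a control transfection, at a threshold of 0.3 on the log2 scale and with no replicate. With CTG480 against CTG0, 1 of 10 genes passed it, where 20% of all genes did. This was Tmsb4x, at −0.38: from CTG0 to CTG480 it went from 88.8 to 95.4 TPM in soma and from 89.7 to 74.3 TPM in neurites. Tmsb10 followed at −0.28, Cfl2 and Dstn at −0.25 each.

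Actb differed by −0.08, Actg1 by 0.02, Pfn1 by 0.03, Acta2 by −0.01, Cfl1 by −0.02 and Pfn2 by −0.09 in the same comparison. The median absolute difference was 0.09 for the 10 genes and 0.14 for all genes tested, here and with the Kif1bα tail. With the Kif1c tail it was 0.16 for the 10 genes and 0.15 for all.

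With the Kif1bα tail against the Kif1bβ tail, 1 of 10 genes passed 0.3, against 20.1% of all genes. Again it was Tmsb4x, here at 0.46: it went from 90.0 to 81.6 TPM in soma and from 74.9 to 93.2 TPM in neurites. Pfn2 at −0.19, Cfl2 at 0.18 and Tmsb10 at 0.15 came next. The actins differed by −0.07 (Actb), −0.03 (Actg1) and 0.04 (Acta2), Pfn1 by −0.03, Cfl1 by −0.11 and Dstn by −0.07.

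With the Kif1c tail, compared with the same control libraries, 2 of 10 genes passed, against 23.3% of all genes. Tmsb10 had a difference of 0.38 and went from 908 to 795 TPM in soma and from 602 to 685 TPM in neurites. Cfl2 had a difference of 0.32, with 22.9 and 24.2 TPM in soma and 20.8 and 27.5 TPM in neurites. Just inside the limit were Acta2 at 0.28 and Dstn at 0.26. Both passed 0.3 under the common sums, and Acta2 also with a common median (0.30).

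The other 6 genes differed by −0.14 (Pfn2) to 0.18 (Tmsb4x) with the Kif1c tail, among them Actb at −0.03, Actg1 at −0.08 and Cfl1 at −0.05. In all 3 comparisons, then, Actb, Actg1, Cfl1 and Pfn1 stayed below the threshold by a wide margin, the value farthest from 0 being −0.11 for Cfl1 with the Kif1bα tail. The differences past 0.3 were in Tmsb4x, Tmsb10 and Cfl2. With 1 library per fraction these cannot be told apart from the spread between libraries. The localization ratio of Tmsb4x in both control transfections was 0.02 with CTG0 and −0.27 with the Kif1bβ tail.

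**Figure D4:**
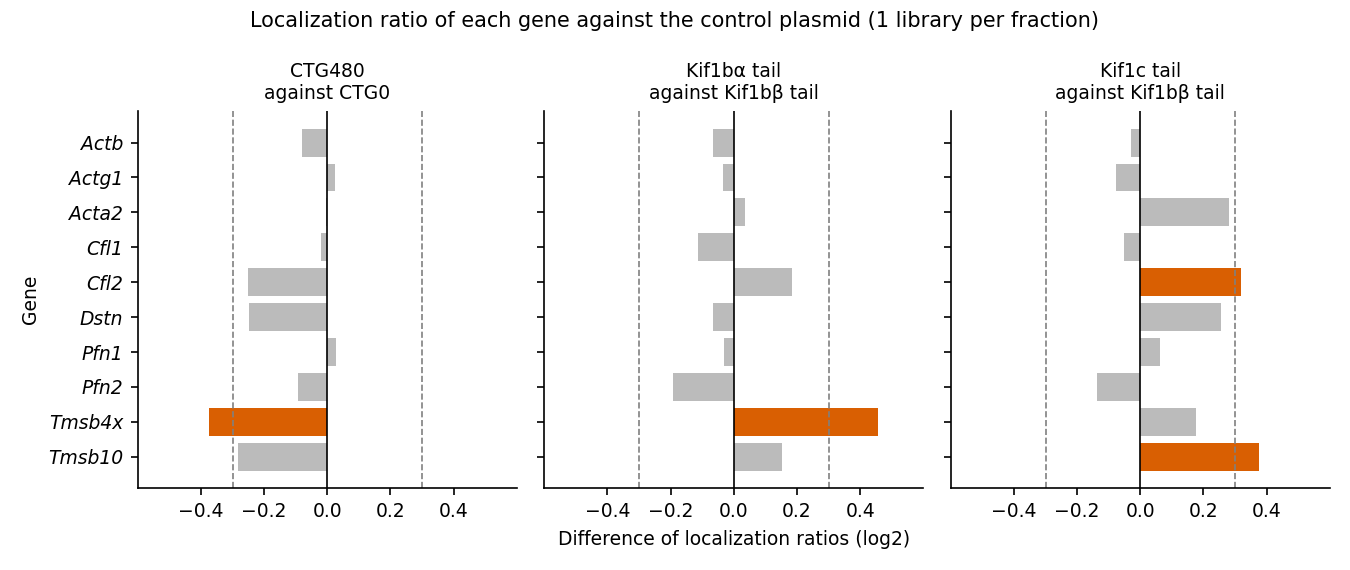
Difference of the localization ratio (log2) of each gene between CTG480 and CTG0, the Kif1bα and Kif1bβ tails, and the Kif1c and Kif1bβ tails, with dashed lines at 0.3 either way and orange bars past them (1 library per fraction, no error). Bars past the lines are those of Tmsb4x at −0.38 and 0.46, and of Tmsb10 at 0.38 and Cfl2 at 0.32 with the Kif1c tail.

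The rest of the actin machinery was read in 7 lists of 117 genes, of which 81 were tested. Of these, 17 (20.99%) passed toward neurites and 7 (8.64%) toward soma, against 19.4% and 18.6% among all genes. In parentheses below stand the localization ratio and then the limma adjusted p. The neurite count fell to 10 without CTG0 and rose to 26 without the block. Of all 9853 genes, 1370 and 2103 passed toward neurites under these changes, against 1911 in the fit as reported. The common sums gave 76 and 45 pathway genes higher in neurites, and 0 and 2 in soma. Among all genes they gave 7093 and 4339 in neurites, and 203 and 893 in soma.

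Among 19 partners and regulators of cofilin, 3 passed toward neurites and 1 toward soma. The monomer-binding Twf2 (0.40, adjusted p = 0.00193), Cotl1 (0.34, 0.00180) and the cofilin kinase Tesk1 (0.34, 0.0386) rose in neurites, and Coro2b (−0.18, 0.0141) fell, by limma. The cofilin phosphatase Ssh1 was at −0.16 (adjusted p = 0.181).

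Among 17 formins, Ena/VASP proteins and other nucleation factors, 4 rose in neurites and 1 fell. Wasf3 (0.48, adjusted p = 0.000856 from limma) and Spire2 (0.32, 0.00642), both nucleation-promoting, and the profilin-binding Enah (0.22, 0.0296) and Vasp (0.21, 0.00821) were the former. Evl, also an Ena/VASP protein, did not pass (0.06, 0.746). The formin Fmnl2 was lower (−0.20, 0.00860), and Daam1 was at −0.15 (0.0641).

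Capping and severing proteins gave 3 of 10 higher in neurites, with Vil1 at 0.30 (adjusted p = 0.0338 from limma) and gelsolin, Gsn, at 0.27 (0.0149). Tmod1, which caps the slow-growing end, was higher in soma (−0.23, 0.0175), and Tmod2 was at −0.09 (0.252). Of 20 filament-binding and crosslinking proteins, 4 were higher in neurites, with tropomyosin Tpm1 at 0.30 (0.00398) and Marcksl1 at 0.27 (0.00473). In this list 3 were higher in soma, with the spectrin Sptbn1 at −0.31 (0.00232) and the α-actinin Actn1 at −0.18 (0.00904).

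Of 6 subunits of non-muscle myosin II, the light chains Myl9 and Myl6 (0.14, adjusted p = 0.0232 from limma) rose in neurites, while the heavy chain Myh10 (−0.08, 0.121) and Myl12a (−0.07, 0.404) did not pass. In the last list, zipcode-binding proteins and the SRF pathway that controls actin genes, Srf was higher in neurites (0.31, 0.00551) and vinculin, Vcl, in soma (−0.43, 0.000816). The zipcode-binding Khsrp was at 0.12 (0.0865) and the SRF cofactor Mkl2 at −0.12 (0.141). Igf2bp2 and Igf2bp3 had means of 2.56 and 0.918 TPM and were not tested, and Igf2bp1 was not analysed here.

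**Figure D5:**
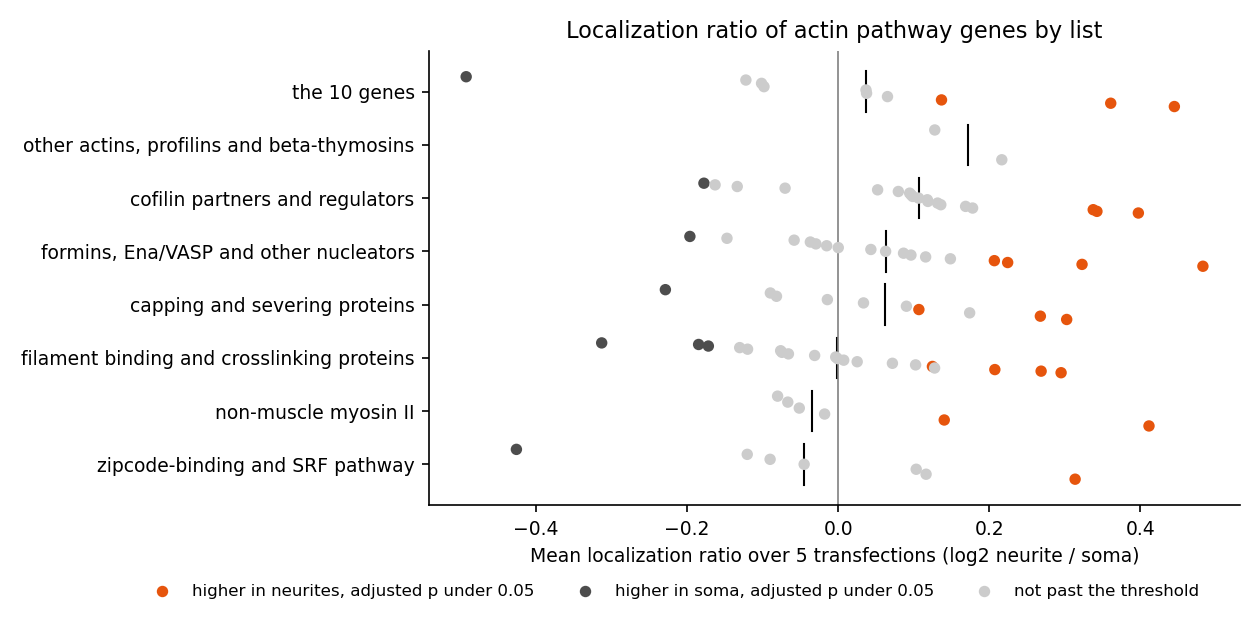
Mean localization ratio over 5 transfections (log2 neurite over soma) of the 10 genes and of the tested genes in 7 lists of the actin pathway, with orange points higher in neurites and dark points higher in soma at an adjusted p under 0.05 (limma), grey points not past it, and black lines at list medians. Across the lists 17 of 81 genes are orange and 7 are dark, and most points lie between −0.2 and 0.2.

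Of the paralogs outside the 10 genes, Actc1 (8.23 TPM) and Actg2 (7.498 TPM) were tested as given above, and Tmsb15l stood at 2.74 TPM, below the filter. Across the 10 libraries, the 3 genes of at least 20 TPM whose levels were most like each member's were named as a description, since libraries share fraction and normalization. They were Trim28, Atp5g1 and Rnf14 for Actg1 (Pearson's r of 0.98 each), and Plin2, Psmb7 and Hn1 for Pfn1 (0.99, 0.98 and 0.98).

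Those of the genes that did not separate the fractions were lower. They were Anapc7, Pdcd6 and Sh3bgrl3 for Actb (0.92, 0.90 and 0.90), Sars, Acadm and Vps33a for Cfl1 (0.93, 0.92 and 0.91), and Smarcad1, Fam91a1 and Mrpl40 for Tmsb4x (0.86, 0.85 and 0.84), out of 5527 genes compared.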

How the data were processed

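RNA was measured in 5 soma and 5 neurite libraries of N2A cells. Per the study's methods, the authors used directional libraries, bcl2fastq 2.20 and kallisto 0.43.0 against mm10 RefSeq, and the deposited signal values are linear TPM normalized by cyclic loess. They sum to 870745 to 1183538 per library. A second deposited table with the authors' log2(neurite/soma) was not used. The 5 plasmid rows and 3 rows without a gene were left out, and transcripts were summed by gene.

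Genes with a mean of at least 5 TPM were tested with limma 3.58.1 in R 4.3.3 (log2 of TPM plus 0.1, transfection as block, eBayes with trend, 2-sided). Libraries of 1 transfection did not deviate together (Pearson's r of −0.03 to 0.05, against −0.12 to 0.10 for other pairs), and the block was kept because both fractions came from the same plates. The procedure was tested on simulated data with independent noise and no effect of transfection. That run could not test how it does with 5 unlike transfections. Outside limma, Python 3.11.15 with numpy 2.4.6 and pandas 2.3.3 was used. All 12 transcripts matched GENCODE on GRCm38.

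Members and lists were chosen with earlier results of these data known. Named were all 10 genes, their transcripts and paralogs of at least 1 TPM, the 2 highest and 2 lowest ratios of each list, and the 3 most similar genes, printed for 5 members; those of Tmsb10 are not reported here. Enah, Vasp, Evl, Stmn2, Ncam1, the Igf2bp genes and the markers of other cells were named after their values were seen. Alternatives changed the pseudocount, filter, scaling, block, variance model, transfections, threshold and level of summing.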

Additional observations from a re-analysis of the deposited data

Results flagged for a closer look

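The level of Acta2 in the CTG0 soma library, 69.8 TPM, stood apart from the 4 other soma libraries, which lay between 76.7 and 79.1 TPM: its gap to the nearest made up 0.743 of the range of the 5, above the 95% limit of 0.71 for 5 values. In 30 sets of 5 values examined in this way, chance alone marks about 1 in 20. Without the CTG0 transfection the localization ratio of Acta2 was still positive and called.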

How the results depend on the processing

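Of the members' localization ratios under the alternatives, 141 kept direction and call, 6 gained a call in the same direction, 6 lost it and 7 changed sign, of which 2 were called with the new sign. Scaling to a common sum, over all transcripts and over protein-coding transcripts in turn, moved every count of calls: genes higher in neurites to 7093 and 4339 (1911 as reported), genes higher in soma to 203 and 893 (1835), transcripts to 6705 and 3635 in neurites and 215 and 817 in soma, genes with all neurite values above to 5775 and 3233 and below to 72 and 565, and pathway genes to 76 and 45 in neurites and 0 and 2 in soma. In the same order, ratios became 0.38 and 0.18 for Actb, 0.40 and 0.20 for Cfl1, 0.38 and 0.18 for Pfn2, now called, and 0.24 and 0.040 for Cfl2, 0.22 and 0.017 for Dstn and 0.24 and 0.037 for Tmsb4x, reversed; over all transcripts, the reversed values of Dstn and Tmsb4x were called (adjusted p of 0.0212 and 0.0443 from limma). Tmsb10 moved to −0.15 over all transcripts and lost its call, and its minor transcript NM_001039392 reversed to 0.26 and 0.062. These scalings shift the ratios of all genes nearly alike, by a median of 0.34 and 0.14. Why the library sums differed between the fractions was not tested.

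The pseudocount, the common median and the variance model changed no call of a member gene between neurites and soma. Without the replicate block no call of a member changed. Then 26 of 81 pathway genes, and 2103 of all 9853 genes, were higher in neurites. Without a filter, Actg1 kept its ratio of 0.14 at an adjusted p of 0.0994 from limma, with more genes tested. Leaving out each transfection gave 10 to 15 pathway genes higher in neurites, where 1281 to 1707 of all genes were. It gave 815 to 1224 transcripts higher in neurites and 968 to 1307 in soma. Ratios were 0.13 to 0.15 for Actg1 and −0.0023 to 0.068 for Pfn2. Here fewer samples entered the fit.

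The counts that follow are out of 10 genes or, for single transcripts, out of 12. For CTG480 against CTG0, a threshold of 0.2 gave 4 genes, of 0.5 gave 0, and single transcripts gave 3. With the Kif1bα tail, a threshold of 0.5 gave 0 and single transcripts gave 2. With the Kif1c tail, thresholds of 0.2 and 0.5 gave 4 and 0, both common sums gave 4 and the common median gave 3. The shares of all genes or transcripts at these settings were not counted, so these counts are no result about the members. Paralog ratios kept their direction under every alternative run. Depth is unknown.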
